A study of Mus musculus with 8 samples.

Results

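The NF-kappaB subunits and their feedback inhibitors were followed across bone marrow neutrophils of wild-type (WT) and ATF3 KO mice as a set of 10 genes. The set holds the subunit genes Nfkb1, Nfkb2, Rel, Rela and Relb and the genes Nfkbia, Nfkbiz, Tnfaip3, Tnfaip2 and Tnip1. Members were found by name, as the 14 probes (15 spots) whose RefSeq transcript belongs to one of these genes, out of 55681 non-control probes on the array. Of the 10 genes, 9 cleared background on 4 or more of the 8 arrays and could be tested, and Rel was not above background on any array.

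Both groups were C57BL/6 mice. One was WT and the other was deficient in ATF3, which belongs to the ATF/CREB transcription factors and is induced by cell stress, and each gave 4 samples of Ly6G+ cells taken from flushed marrow with magnetic beads. Age, sex and the design of the deleted allele are not given in the sources used here, and no label ties the samples to separate animals, so p-values measure only the spread between these samples. The description field of 7 samples mentions 1 week of culture with 4-OHT, a conflict with the design text, which has RNA taken directly after sorting. All arrays were on 1 slide, where WT and ATF3 KO arrays sat in separate rows, and a row effect cannot be told apart from genotype. Of the listed neutrophil marker genes, 15 had a named probe, and all 15 were above background on all 8 arrays. No probe was named for Ly6g. The probe for Atf3 gave log2 values of 0.70, 0.82, 0.75 and 0.65 in WT and 1.54, 1.00, 1.41 and 1.02 in ATF3 KO, relative to each array's 75th percentile. Every ATF3 KO array lay above every WT array, and whether the probe lies in the deleted part is not known here, so it does not check the genotype. The name ATF3 KO therefore stands for the arrays so labelled throughout.

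In a resting cell, NF-kappaB dimers are held in the cytoplasm by IkB proteins such as IkB-alpha, the product of Nfkbia. Signals from Toll-like receptors, the IL-1 receptor and TNF receptors activate the IkB kinase complex, IkB-alpha is degraded, and the freed dimers enter the nucleus. They switch on inflammatory genes and also their own inhibitors, so that the mRNA of Nfkbia and Tnfaip3 is often read as a sign of recent pathway activity. Most of the control acts on the proteins, which arrays do not measure. ATF3 is known from macrophages as a negative regulator of inflammatory genes induced through Toll-like receptors.

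The feedback loop runs through kappaB sites near the start of the inhibitor genes, so the promoter windows of 3 inhibitors and of the subunit gene Nfkb2 are shown. Each window runs from 250 bases before to 50 after a gene start in the RefSeq annotation of GRCm38.p6, and a window was at hand for 7 members. The windows below are those of Nfkbia (chr12:55492598-55492897, minus strand), Tnfaip3 (chr10:19015361-19015660, minus strand), Tnip1 (chr11:54962891-54963190, minus strand) and Nfkb2 (chr19:46304487-46304786, plus strand). Capitals mark matches to the kappaB consensus on either strand.
Nfkbia: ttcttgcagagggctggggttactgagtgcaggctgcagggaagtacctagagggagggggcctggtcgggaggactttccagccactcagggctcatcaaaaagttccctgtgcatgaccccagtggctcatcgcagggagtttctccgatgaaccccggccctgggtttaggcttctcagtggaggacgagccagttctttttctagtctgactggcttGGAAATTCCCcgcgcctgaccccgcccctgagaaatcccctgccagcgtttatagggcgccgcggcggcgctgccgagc
Tnfaip3: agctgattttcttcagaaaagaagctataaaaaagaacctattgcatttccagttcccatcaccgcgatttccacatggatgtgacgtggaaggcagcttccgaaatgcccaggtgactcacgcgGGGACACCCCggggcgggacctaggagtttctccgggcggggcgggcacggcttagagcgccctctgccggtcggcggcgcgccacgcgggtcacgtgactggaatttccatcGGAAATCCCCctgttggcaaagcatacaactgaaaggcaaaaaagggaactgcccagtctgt
Tnip1: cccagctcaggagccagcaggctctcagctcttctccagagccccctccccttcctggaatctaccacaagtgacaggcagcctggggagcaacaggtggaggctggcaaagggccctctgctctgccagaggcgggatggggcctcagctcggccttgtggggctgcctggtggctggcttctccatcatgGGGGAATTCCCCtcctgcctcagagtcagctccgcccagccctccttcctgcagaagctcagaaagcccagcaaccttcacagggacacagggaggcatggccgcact
Nfkb2: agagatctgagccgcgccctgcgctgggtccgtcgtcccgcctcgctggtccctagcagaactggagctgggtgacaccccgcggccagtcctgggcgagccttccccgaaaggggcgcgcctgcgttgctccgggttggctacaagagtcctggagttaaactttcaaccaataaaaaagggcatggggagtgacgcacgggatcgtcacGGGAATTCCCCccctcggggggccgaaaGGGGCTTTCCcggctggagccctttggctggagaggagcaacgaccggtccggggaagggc

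The kappaB consensus matched the windows of 6 of the 7 members, namely Nfkbia, Tnfaip3, Tnip1, Tnfaip2, Nfkb2 and Rel, against 9.55% of 27025 genes. By windows of 300 bases, it matched 8 of the members' 10 and 8.46% of all 32851. In Nfkbia the match lay 29 to 20 bases before the start. Tnfaip3 had a match 125 to 116 bases and another 12 to 3 bases before it, and in Tnip1 the match, which reads the same on both strands, lay 58 to 47 bases before it. The Nfkb2 window shown held matches 39 to 29 and 11 to 2 bases before its start. The window of Rela, the gene of the p65 subunit, had none. Motifs bound by ATF and AP-1 proteins were searched on both strands as well. The CRE (TGACGTCA) matched no member window and 1.79% of all windows, and the AP-1 motif (TGANTCA) matched the window of Tnfaip3 shown above, a further window of Nfkb2 and 7.81% of all windows. A match describes the letters of the window and not a bound site.

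The main measure was the log2 processed signal of a probe relative to its array's 75th percentile, and differences between genotypes were tested with limma across 21247 genes. The 75th percentile was 186 ± 33.8 signal units (SD, n = 4) on the WT arrays and 141 ± 21.3 on the ATF3 KO arrays, with the lowest value, 113, on ATF3 KO replicate 4. Over all genes the median log2 difference was −0.11, so a member at that value stands level with the array. At a Benjamini-Hochberg adjusted p under 0.05, 95 genes passed, 78 of them higher (0.367%) and 17 lower (0.08%) in ATF3 KO. With normexp background correction the split was 160 higher and 97 lower, and with quantile normalization 22 and 9. The split turned to 4 higher and 6 lower without a filter on dim probes and to 3 higher and 6 lower without WT replicate 1.

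None of the 9 tested members passed the threshold in limma, against 0.447% of all genes, and none of the 13 tested probes passed, against 0.208% of all probes. None of the 9 had an unadjusted p under 0.05, which 23.9% of all genes had. In none did the 4 values of one genotype lie wholly above or below those of the other, as they did for 15.1% of all genes (4.13% higher and 10.9% lower in ATF3 KO). The difference was below 0 for 8 of the 9, against 65.5% of all genes, though the sign of several turned with the scaling. The log2 differences ran from −0.67 (Tnip1) to 0.07 (Nfkbiz), with a median of −0.12 beside −0.11 for all genes. For 8 of the 9, all but Tnip1, the 95% interval of the difference held 0 and lay within a 2-fold change in either direction, as it did for 72.1% of all genes.

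**Figure D1:**
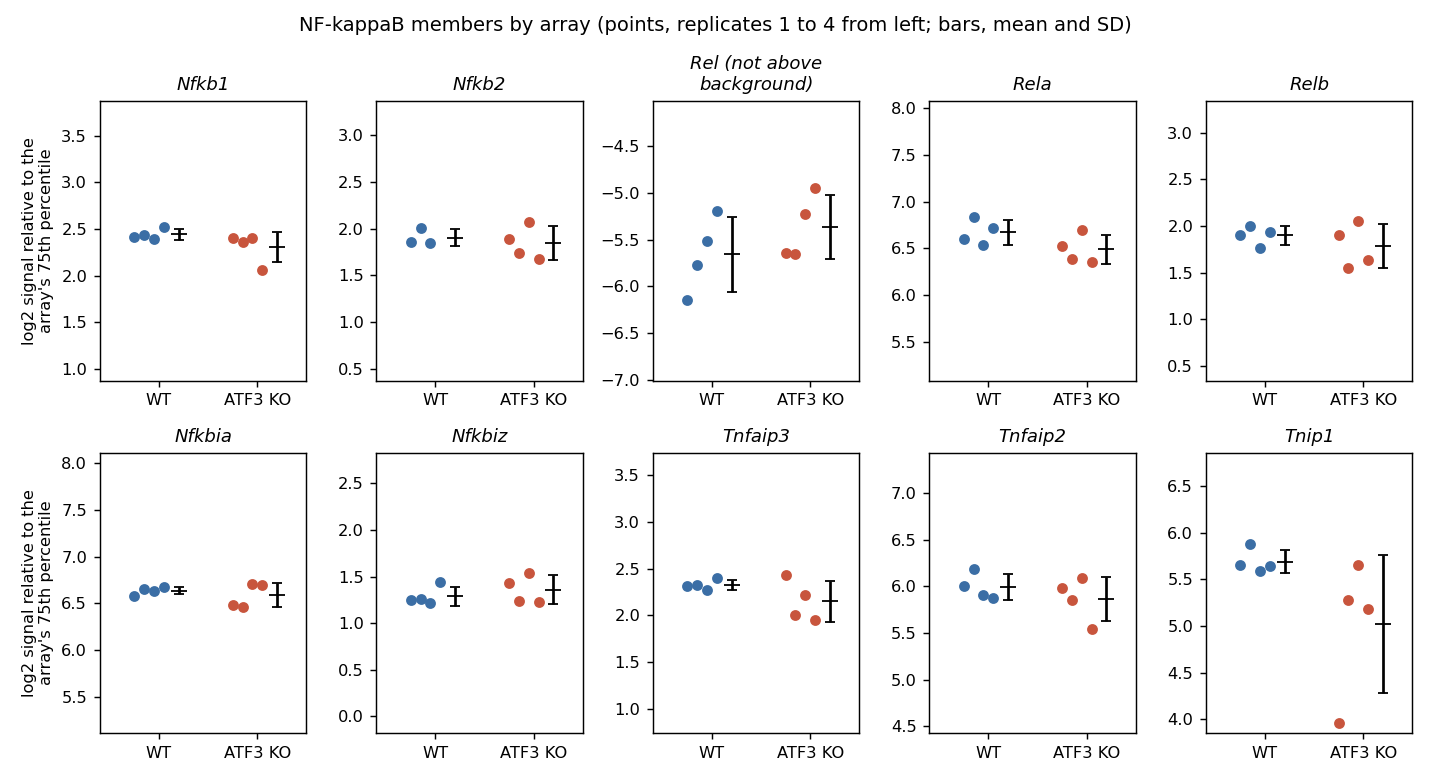
Log2 signal above or below the 75th percentile of its array (vertical axis, one panel per gene, each spanning the same number of log2 units) for the 4 WT and 4 ATF3 KO arrays, replicates 1 to 4 from left to right (Nfkb2 has no WT replicate 4), with mean and SD as bars. The groups overlap in all 9 tested members, ATF3 KO replicate 1 of Tnip1 lies at 3.96, and Rel was not above background on any array.

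**Figure D2:**
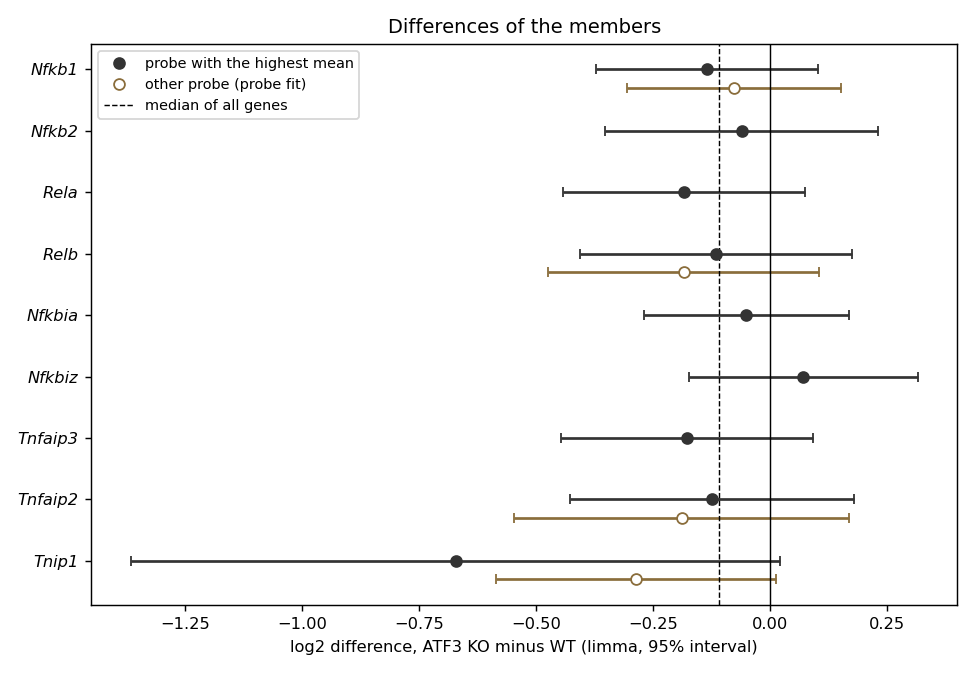
Log2 difference between ATF3 KO and WT (horizontal axis) with its 95% interval from limma for each member, filled for the probe with the highest mean and open for the other probe of the 4 genes that have 2. Every interval includes 0, and the dashed line is the median of all genes at −0.11.

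Among the subunits, Rela encodes p65, the main activating subunit of the canonical pathway. Its values were 6.61, 6.84, 6.53 and 6.72 in WT replicates 1 to 4 and 6.52, 6.39, 6.70 and 6.35 in ATF3 KO replicates 1 to 4. ATF3 KO replicates 1, 2 and 4 lay below every WT array, replicate 1 only just, while replicate 3 lay among them. The log2 difference was −0.18 (SE 0.11, limma adjusted p = 0.321), with a 95% interval of 0.737 to 1.05 for the fold of ATF3 KO over WT. Nfkb1 encodes p105, the precursor of the p50 subunit that pairs with p65. It gave 2.42, 2.44, 2.39 and 2.52 in WT and 2.40, 2.36, 2.41 and 2.07 in ATF3 KO, so that ATF3 KO replicates 1 and 3 lay within the WT range, replicate 2 just under it and replicate 4 well below. The difference was −0.13 (SE 0.11, limma adjusted p = 0.418, fold interval 0.773 to 1.08). The other Nfkb1 probe gave −0.08 (SE 0.10), and there replicate 4, at 0.94, lay between the other ATF3 KO arrays.

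Nfkb2 and Relb encode p100 and RelB, the pair of the noncanonical pathway, which responds to receptors such as those for BAFF and lymphotoxin. Nfkb2 gave 1.86, 2.01 and 1.85 in WT replicates 1 to 3, and 1.89, 1.74, 2.08 and 1.68 in ATF3 KO. Its spot on WT replicate 4 carried an outlier flag and was left out of the fit. The ATF3 KO values enclosed the WT values on both sides, and the difference was −0.06 (SE 0.13, limma adjusted p = 0.767, fold interval 0.783 to 1.17). Relb gave 1.90, 1.999, 1.76 and 1.93 in WT and 1.90, 1.55, 2.05 and 1.63 in ATF3 KO. Here too ATF3 KO replicates 2 and 4 lay below all WT arrays and replicate 3 above them. The difference was −0.11 (SE 0.13, limma adjusted p = 0.567, fold interval 0.756 to 1.13), and the other Relb probe gave −0.18 (SE 0.13).

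Rel encodes c-Rel, a subunit best known from lymphocytes. Its only probe gave −6.14, −5.77, −5.52 and −5.19 in WT and −5.64, −5.66, −5.22 and −4.95 in ATF3 KO. These values are not well above background on any of the 8 arrays and give no fold. They do not show that the mRNA is missing.

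Among the members that are not subunits, Nfkbia encodes IkB-alpha, and its mRNA was the most even of the tested members in WT. It gave 6.58, 6.65, 6.64 and 6.68 in WT and 6.48, 6.47, 6.71 and 6.69 in ATF3 KO. ATF3 KO replicates 1 and 2 lay just below and replicates 3 and 4 just above every WT array. The log2 difference was −0.05 (SE 0.10, limma adjusted p = 0.747), and the fold interval of 0.830 to 1.12 leaves out a change of 2-fold in either direction. The direction of so small a value depended on the scaling, and it was 0.10 with the percentile taken over detected probes. Nfkbiz encodes IkB-zeta, a nuclear IkB protein that acts with NF-kappaB on a secondary group of its targets. It gave 1.24, 1.26, 1.21 and 1.44 in WT and 1.43, 1.24, 1.54 and 1.23 in ATF3 KO. Only ATF3 KO replicate 3 lay above all WT arrays, and the others lay within their range. It was the only tested member with a positive difference, 0.07 (SE 0.11, limma adjusted p = 0.671, fold interval 0.887 to 1.25), and with normexp background correction its difference was −0.03.

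Tnfaip3 encodes A20, a ubiquitin-editing enzyme that shuts off signalling above the IkB kinase. It gave 2.32, 2.33, 2.27 and 2.40 in WT and 2.43, 2.01, 2.22 and 1.95 in ATF3 KO. The 4 WT arrays lay close together, whereas in ATF3 KO replicate 1 lay above all of them and the others below. The difference was −0.18 (SE 0.12, limma adjusted p = 0.354, fold interval 0.734 to 1.07). Tnfaip2, a TNF-induced gene of myeloid and endothelial cells, gave 6.00, 6.18, 5.90 and 5.88 in WT and 5.99, 5.85, 6.09 and 5.55 in ATF3 KO. ATF3 KO replicate 2 lay just below every WT array and replicate 4 further below, and the difference was −0.12 (SE 0.14, limma adjusted p = 0.555, fold interval 0.744 to 1.13). Its other probe gave −0.19 (SE 0.16).

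Tnip1 encodes ABIN1, a ubiquitin-binding partner of A20, and was the member with the largest and least certain difference. The probe with the higher mean gave 5.65, 5.87, 5.59 and 5.64 in WT and 3.96, 5.27, 5.66 and 5.18 in ATF3 KO. The log2 difference was −0.67 (SE 0.31, limma adjusted p = 0.218, fold interval 0.388 to 1.02). ATF3 KO replicates 1, 2 and 4 lay below every WT array and replicate 3 within their range. Replicate 1 lay far below the rest, and without that array the difference was −0.32 (SE 0.14). The other Tnip1 probe gave 5.15, 5.32, 5.04 and 5.15 in WT and 5.03, 4.71, 5.12 and 4.65 in ATF3 KO, where replicate 1 sat just under the lowest WT array. Its difference was −0.29 (SE 0.13, limma adjusted p = 0.232, fold interval 0.667 to 1.01), with 3 ATF3 KO arrays below every WT array and replicate 3 within their range.

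On 7 arrays the log2 difference between the Tnip1 probes was between 0.50 and 0.56, and on ATF3 KO replicate 1 it was −1.08. The spot behind that value had a processed signal of 2492, against 4090 to 6994 on the other ATF3 KO arrays, and carried no outlier flag. The paired probes of Nfkb1, Relb and Tnfaip2 kept their order on every array, with ranges of 1.13 to 1.57, 0.92 to 1.10 and 0.68 to 0.96.

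**Figure D3:**
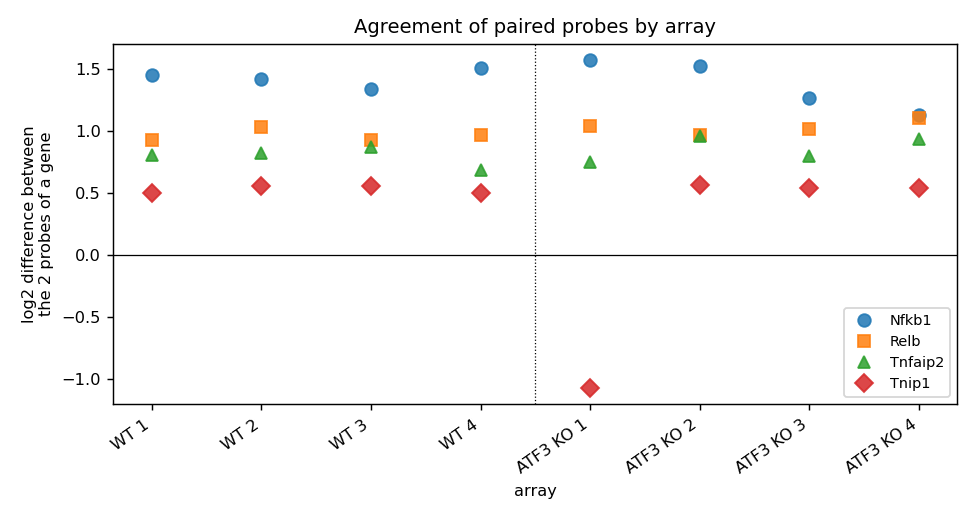
Log2 difference between the 2 probes of a gene (vertical axis) on each of the 8 arrays for the 4 members with 2 probes. Tnip1 lies between 0.50 and 0.56 on all arrays but ATF3 KO replicate 1, where it is −1.08.

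The spread between arrays was wider in ATF3 KO than in WT for all 9 tested members, as it was for 72.9% of all genes. The SD of Nfkbia was 0.04 in WT and 0.13 in ATF3 KO, that of Tnfaip3 0.05 and 0.22, and that of Nfkb1 0.06 and 0.16. Over all genes the median SD was 0.14 in WT and 0.21 in ATF3 KO. Within ATF3 KO, replicate 3 was the highest array for 8 of the 9 members, against 36.5% of all genes, the exception being Tnfaip3. Replicate 4 was the lowest for 6 of them, against 36.4% of all genes, the exceptions being Relb, Nfkbia and Tnip1. The median deviation of the members from their own means was 0.16 on ATF3 KO replicate 3 and −0.21 on replicate 4, where the median of all genes deviated by 0.02 and −0.08.

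**Figure D4:**
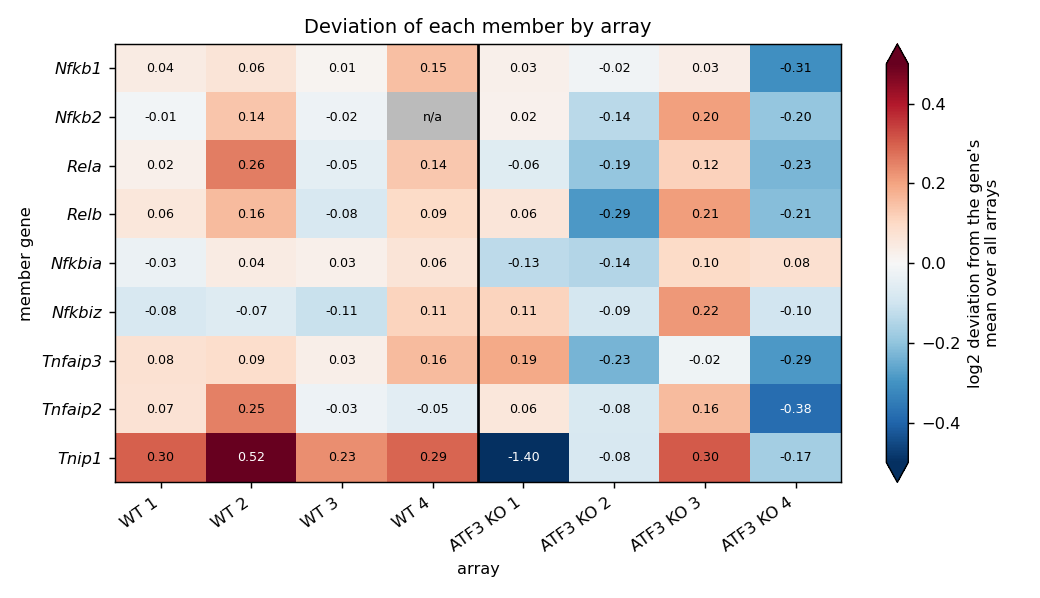
Log2 deviation of each tested member (rows) from its own mean over the arrays, by array (columns), with WT to the left of the line and ATF3 KO to the right. ATF3 KO replicate 3 is above the mean in 8 of 9 members, replicate 2 in none and replicate 4 in 1, Nfkbia, and the grey cell is the Nfkb2 spot left out.

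Other values moved between these arrays as well. Relative to the median of all genes, the mean deviation of the listed NF-kappaB target genes was 0.04, −0.21, 0.19 and −0.18 on ATF3 KO replicates 1 to 4, and on the WT arrays it stayed between 0.01 and 0.06. The value on replicate 3 leans on Cxcl10, which lay at 4.45 there and between 0.95 and 2.41 on the other arrays. Markers of the B lineage, cells that use several NF-kappaB subunits, had mean deviations of 0.20, 0.38, 0.14 and 0.61 on the same ATF3 KO arrays and between −0.60 and −0.14 in WT. Of the 15 tested, 11 were higher at an unadjusted p under 0.05, against 9.38% of all genes, and none passed limma's threshold. In 7 of them every ATF3 KO array lay above every WT array, against 4.13% of all genes. The summed level of the B lineage markers, in multiples of the array's 75th percentile, was 76.6 to 101 in WT and 133 to 151 in ATF3 KO. The rise of that sum leans on Jchain, at log2 3.01 to 4.80 in WT and 5.21 to 5.71 in ATF3 KO. Its difference, 1.81 (SE 0.35), was the largest of the list. All 15 B lineage markers with a named probe passed the filter on dim probes, and none was at 0. In the same units the neutrophil markers, of the sorted cell type, summed to 9675 to 12260 in WT and 11830 to 14300 in ATF3 KO. Their median log2 difference was 0.28 above that of all genes. At an unadjusted p under 0.05, 6 of the 15 were higher, against 9.38% of all genes, and none passed limma's threshold. Their mean deviation was −0.008 to 0.313 on the ATF3 KO arrays and −0.193 to −0.013 on the WT arrays. The groups barely separated, with ATF3 KO replicate 2 at −0.008 and WT replicate 4 at −0.013. The median of the neutrophil markers relative to all genes ran from 0 to 0.352 over the alternatives. With quantile normalization it was 0.041. Summed levels weigh bright probes most. Dendritic cell and MHC class II markers summed to 411 to 536 in WT and 559 to 801 in ATF3 KO, sums that follow the bright probe of Siglech (log2 8.25 to 8.73 and 8.75 to 9.37). In that list the median log2 difference was 0.29. Of the 10 tested, 1 passed limma's threshold, Ccr7 (0.94, SE 0.16, limma adjusted p = 0.0494), where 0.367% of all genes passed as higher. Over the alternatives 0 to 2 genes of that list passed. At an unadjusted p under 0.05, 6 of the 10 were higher and 2 lower (9.38% and 14.5% of all genes). In 7 every ATF3 KO array lay above every WT array, and in 1 below (4.13% and 10.9% of all genes). Cd74 (0.34) and H2-Eb1 (0.31) were among the higher. The 2 lower were Itgax (−0.51) and Zbtb46 (−0.45), and Zbtb46 was above background on only 2 of the 4 ATF3 KO arrays. T and NK cell markers summed to 25.2 to 28.5 and 19.2 to 26.6, but their median difference was level with all genes (0.001 above it), with Cd3d at −0.38 and Lck and Gzma at 0.39 and 0.56. Monocyte and macrophage markers summed to 302 to 356 and 238 to 308, with a median of −0.36. Of the 12 tested, 1 passed limma's threshold, Vsig4 (−0.92, SE 0.15, limma adjusted p = 0.0481), where 0.08% of all genes passed as lower. Over the alternatives 0 to 1 gene of that list passed. At an unadjusted p under 0.05, 7 of the 12 were lower, against 14.5% of all genes, and none was higher. Stroma and endothelium markers summed to 131 to 173 and 71.8 to 123, with a median of −0.45. Of the 11 tested, 5 were lower at an unadjusted p under 0.05, against 14.5% of all genes, and none was higher. Erythroid markers summed to 3205 to 3913 and 3494 to 4669, with a median of 0.14. Megakaryocyte and platelet markers summed to 65.5 to 82.8 and 56.3 to 107.9, with a median of 0.62, and reached a mean deviation of 0.95 on ATF3 KO replicate 4. In sorted bulk cells, fewer cells of a type and less RNA per cell cannot be told apart, and the part of other cells or of array brightness in the members' values was not tested.

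The genes around the members in the pathway were examined as lists. Of 24 other IkB proteins and regulators, 23 were tested, and none rose or fell by limma's threshold, with 1 higher and 4 lower at an unadjusted p under 0.05 (9.38% and 14.5% of all genes). Their median log2 difference was −0.15 beside −0.11 for all genes. The smallest p-values belonged to Otulin, which encodes a deubiquitinase of linear chains (−0.37, SE 0.11), Nlrc5, a regulator of MHC class I genes (0.71, SE 0.22), Nlrc3 (−0.42, SE 0.15) and Commd1 (−0.30, SE 0.12), with limma adjusted p from 0.131 to 0.184. The relatives of IkB-alpha gave −0.15 for Nfkbib, −0.24 for Nfkbie and 0.04 for Nfkbid, with limma adjusted p from 0.251 to 0.862.

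Of the 31 upstream kinases and adaptors, all were tested, 1 fell, where 0.08% of all genes fell, and none rose. The gene that fell was Traf5, which encodes an adaptor of TNF receptor family members. It gave 1.66, 1.68, 1.57 and 1.48 in WT and 1.03, 0.80, 0.95 and 0.86 in ATF3 KO, and every ATF3 KO array lay below every WT array. The log2 difference was −0.69 (SE 0.10, limma adjusted p = 0.0345), and over the 24 alternatives it ran from −0.76 to −0.52 with an adjusted p from 0.0078 to 0.143. The call was lost in 9 of them. The limma adjusted p was 0.106, 0.104 and 0.0998 without WT replicate 1, 2 or 3 and 0.0976 and 0.0689 without ATF3 KO replicate 2 or 4. Traf5 lies on chromosome 1, as Atf3 does, and whether the shared chromosome bears on its difference was not tested.

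Traf6, the ubiquitin ligase below Toll-like and IL-1 receptors, gave −0.43 (SE 0.11), Tab1, a partner of the kinase TAK1, −0.33 (SE 0.10), and Chuk, the gene of IkB kinase alpha, −0.31 (SE 0.10), with limma adjusted p from 0.111 to 0.144. These 3 also had no overlap between the groups. In this list 9 of 31 genes lay lower in ATF3 KO without overlap, against 10.9% of all genes, and the median was −0.20. At an unadjusted p under 0.05, 7 were lower, against 14.5% of all genes, and none was higher. Relative to all genes the median was −0.087, and over the alternatives it ran from −0.18 to −0.012. The value of −0.012 came with quantile normalization. The other IkB kinase genes, Ikbkb and Ikbkg, gave −0.24 (SE 0.13) and −0.21 (SE 0.14).

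Of 32 target genes of NF-kappaB, 25 were tested and none passed limma's threshold, with 1 higher and 7 lower at an unadjusted p under 0.05 (9.38% and 14.5% of all genes). With normexp, and without ATF3 KO replicate 1, 1 of them passed. The median was −0.22. The chemokine genes Ccl4 (−0.64, SE 0.17) and Ccl3 (−0.57, SE 0.15), Ptgs2, which encodes cyclooxygenase 2 (−0.48, SE 0.13), and Plau, which encodes urokinase (−0.42, SE 0.11), had the smallest p-values, with limma adjusted p from 0.117 to 0.123. In each of these 4 every ATF3 KO array lay below every WT array, and 5 of the 25 did so in all, against 10.9% of all genes. Ccl3 gave 2.41, 2.35, 2.51 and 2.55 in WT and 2.32, 1.71, 1.94 and 1.60 in ATF3 KO, with replicate 1 just under the lowest WT array. Il1b gave 0.02 (SE 0.14), Tnf −0.22 (SE 0.20) and Cxcl2 −0.05 (SE 0.30). Il1a, Il6, Il10, Cxcl1, Csf2 and Csf3 did not pass the filter on dim probes.

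Of 23 immediate early genes, which stimulation or handling of cells switches on within minutes, 22 were tested and none passed limma's threshold. At an unadjusted p under 0.05, 2 were higher and 6 lower (9.38% and 14.5% of all genes). The 6 include Egr3, which passed the filter only through the WT arrays, and the 2 include the Atf3 probe. Their median was −0.10. Under alternatives up to 2 of them passed, namely 2 with normexp, in the deposited table or with the threshold at 0.1, and 1 with median scaling, with trend and robust variances, and without ATF3 KO replicate 1 or 2. Egr1 gave −0.81 (SE 0.18), Fos −0.50 (SE 0.14) and the Atf3 probe 0.51 (SE 0.14), with limma adjusted p from 0.0913 to 0.122. Egr3 cleared background on each of the 4 WT arrays but on none of the ATF3 KO arrays. It passed the filter only through the WT arrays, and its WT mean was at least 1.49-fold above the background limit of the ATF3 KO arrays. The limma adjusted p of 0.0913 belongs to the measured means, −2.42 and −4.43, of which the second rests on signals not well above background, and not to that bound.

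**Figure D5:**
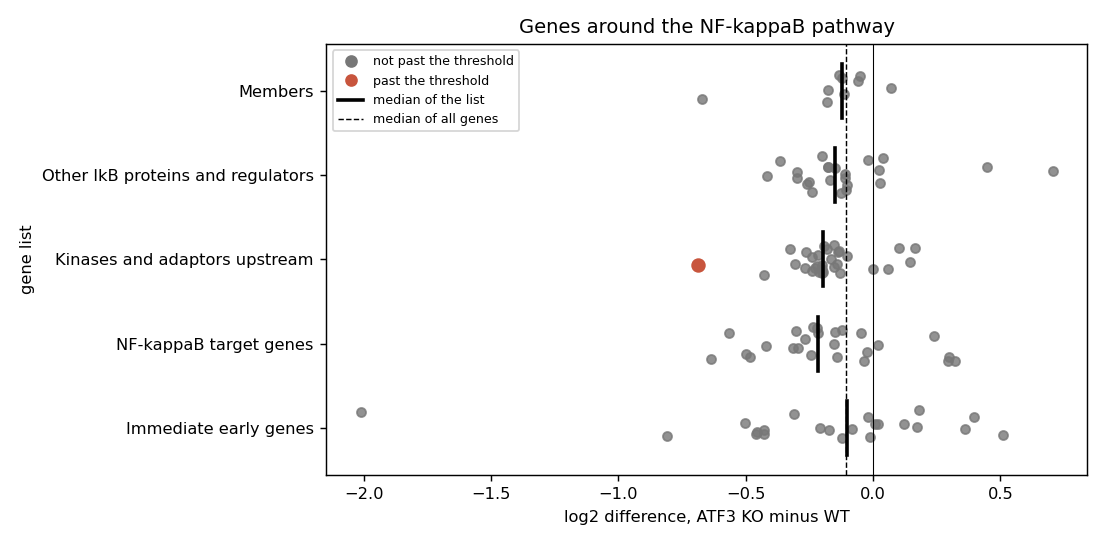
Log2 difference between ATF3 KO and WT (horizontal axis) for each tested gene of the members and of 4 lists around the pathway, with the list median as a bar and the median of all genes dashed at −0.11. Only Traf5, among the upstream kinases and adaptors, is past the threshold, and the Egr3 point at the far left rests on signal at background in ATF3 KO.

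The genes whose pattern over the 8 arrays came nearest to Nfkbia, Nfkbiz and Tnfaip3 were sought among 11311 named genes above background on every array. The measure was the root mean square difference after each gene was centred on its mean. Nearest to Nfkbia were Ptges3 (0.0293), Hnrnpf (0.0375) and Sprr2a2 (0.0398), where the median gene lay at 0.193. Nearest to Nfkbiz were Gnb2 (0.0358), Top3b (0.0428) and Unc93b1 (0.0442, median 0.208), and nearest to Tnfaip3 were Stx12 (0.0363), Sbf1 (0.0441) and Ybx1 (0.0457, median 0.165). Of these 9 genes none is a member or a listed gene of the pathway. Each has a log2 difference between −0.18 and 0.04, which the choice by pattern over the same arrays keeps near that of its member.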

How the data were processed

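RNA of 8 samples, 4 WT and 4 ATF3 KO, was read on single-colour Agilent arrays on 1 slide, and groups follow the sample titles. The authors deposited scanner output whose processed intensity had been background-subtracted with Feature Extraction 10.9.1.1, per the file headers; the submitters' processing notes name version 10.10. A log2 table of all arrays was also deposited by the authors, with its normalization not given in the sources used here, and served as an alternative. No spot was saturated.

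Outlier-flagged spots (98 to 159 per array) were left out, spots of a probe were averaged, log2 intensity was taken relative to each array's 75th percentile over 55681 probes, and probes above background on at least 4 of 8 arrays were kept (27942). The probe with the highest mean stood for a gene. Differences were fitted with limma 3.58.1 in R 4.3.3 (lmFit, eBayes; Benjamini-Hochberg over 21247 genes, adjusted p under 0.05) after tests on simulated data. The number of arrays limits the precision. In the lists around the pathway, the 4 genes with the smallest p-values were named. Other genes of these lists were named as relatives of a member or as well-known targets, chosen after their values were seen. The cell type markers named did not follow the rule of smallest p-values and were also chosen after their values were seen. Beside the lists around the pathway, 8 lists of cell type markers were summed. Gene names came from RefSeq transcripts (GRCm38.p6, names and promoter windows only; the headers name mm9). Members and lists were chosen with earlier results of these data known.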

Additional observations from a re-analysis of the deposited data

Results flagged for a closer look

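In each genotype's group of 4 arrays, the gap of the highest or lowest array to its neighbour was divided by the range of the group and set against Dixon's critical value of 0.829. Of 27 groups of member probes, 2 had an array past it, where chance gives about 1 in 20. The Nfkb1 probe with the higher mean had ATF3 KO replicate 4 at a log2 value of 2.07, below the other ATF3 KO arrays, which lay between 2.36 and 2.41. The Relb probe with the lower mean had WT replicate 3 at 0.84, below the other WT arrays, which lay between 0.97 and 0.98.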

How the results depend on the processing

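No member passed the threshold under any of the 24 alternatives run, where the lowest adjusted p of a member was 0.101 in limma. Of 215 member values 200 kept their sign, but that is not a count of separate checks. The filter on all 8 arrays, no filter, every probe tested, trend and robust variances and the threshold at 0.1 left the member values they gave unchanged. The 15 values that changed sign were near 0: with normexp Nfkbiz −0.029; with median scaling Nfkbiz −0.003; with quantile normalization Nfkb2 0.065, Relb 0.002, Nfkbia 0.052 and Tnfaip2 0.005; with the percentile over detected probes Nfkb1 0.018, Nfkb2 0.101, Relb 0.038, Nfkbia 0.102 and Tnfaip2 0.029; and in the deposited log2 table Nfkb2 0.023, Nfkbia 0.028, Tnfaip3 0.017 and Tnfaip2 0.035. The median difference of all genes itself ran from −0.18 with median scaling to 0.04 with the percentile over detected probes. The members' median relative to all genes, −0.015, was −0.127 with normexp, −0.108 without a filter, 0.047 with quantile normalization, 0.045 in the deposited table, and −0.059 to 0.022 when 1 array was left out. The count of all genes past the threshold, 95, was 257 with normexp, 31 with quantile normalization, 217 with median scaling, 44 with the percentile over detected probes, 10 without a filter, 48 with every probe tested, 192 with trend and robust variances, 257 with array weights, 149 in the deposited table and 403 at an adjusted p under 0.1; the cause was not tested. Leaving out 1 array gave 9 (WT replicate 1) to 234 (ATF3 KO replicate 3) calls, with 36, 13 and 59 without WT replicates 2, 3 and 4 and 124, 20 and 29 without ATF3 KO replicates 1, 2 and 4. Added after seeing the data, leaving out ATF3 KO replicates 3 and 4 together gave 22 calls, and keeping the outlier-flagged spots made the Nfkb2 difference −1.34 (SE 1.03). Tnip1 ran from −1.08 to −0.15; with normexp and in the deposited table its other probe stood for the gene, at −0.37 and −0.15, while the probe of the report gave −0.84 and −0.62. Nfkb2 gave no value under the filter on all 8 arrays. The labels do not pair same-numbered samples, but WT and ATF3 KO arrays of the same number sat in the same slide column. With the replicate block, which is thus also a block for slide column, 72 genes and 0 members passed. The correlations of same-numbered deviations were 0.191, −0.132, −0.269 and 0.182.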

Other observations

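The Nfkb2 spot left out on WT replicate 4 had a processed signal of 19790, where the other WT arrays had 592 to 869 and the ATF3 KO arrays 359 to 596.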
